A study of Mus musculus with 12 samples.

Results

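Hepatic fatty acid synthesis is switched on at the level of transcription by a pair of factors. SREBP-1, encoded by Srebf1, is a membrane-bound factor that is cut free and enters the nucleus when insulin signals, and ChREBP, encoded by Mlxipl, answers to sugar metabolites. Together they raise the genes of the pathway, among them acetyl-CoA carboxylase, which commits acetyl-CoA to fatty acids by making malonyl-CoA. The genes described here are these regulators and 5 of their targets: Thrsp (Spot 14) and its relative Mid1ip1, small proteins that act with acetyl-CoA carboxylase, the carboxylases Acaca and Acacb, and the patatin-like lipid droplet protein Pnpla3. They were chosen by name, as all probes annotated with 1 of these 7 gene symbols, which gave 11 of the 45281 probes on the array and 7 of 19057 named genes.

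Liver RNA came from insulin-deficient mice of mixed strain background, all of them carrying that deficiency, also the controls. The leptin group (6 arrays) received leptin into a brain ventricle (icv) at 25 ng in 0.11 µL per hour and was sampled on day 10. The PBS group (6 arrays) received icv phosphate-buffered saline (called placebo in the sample titles), for which volume and day are not recorded here. How the insulin deficiency was produced, and the animals' age, are not given in the sources used here, and nothing in the labels says that each array is a different animal. The p-values here reflect array-to-array spread, part of which may be technical. Means are over 6 arrays in each group.

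Detection, a detection p below 0.01 on an array, was reached by 13159 to 14431 probes per array, and array pairs over kept probes had a Pearson's r of 0.946 to 0.984 inside a group and of 0.926 to 0.972 across groups. No array correlated better on average with the other group than with its own. On the sum of its 7 hepatocyte markers the tissue read as liver in both groups, from 131879 to 152449 with leptin and from 124303 to 160494 with PBS (normalized intensity, offset removed), although the Alb probe itself was dim at signals of 153.1 to 276.3. None of the 6 adipocyte markers on the array was detected on 3 arrays, and 5 of them were detected on none. Leptin 4 and PBS 3 lay outside the rest of their groups on a score of 10 clock genes. The score was their mean standardised level, with the signs of Arntl and Clock reversed. Leptin 4 stood at -0.58 with the other leptin arrays at 0.61 to 0.98, and PBS 3 at 0.50 with the other PBS arrays at -0.66 or lower. Results are given without leptin 4 and PBS 3 where they change a call.

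The DNA just before the starts of both regulators and of Thrsp is shown first, because Mlxipl and Srebf1 are the members that moved and Thrsp is the classical target of both. The windows are 250 bases upstream of a RefSeq start in GRCm38.p6, and all 7 genes matched, with 10 starts between them. Capitals mark an E-box (CACGTG, the core of ChREBP's element), a CCAAT box (CCAAT, bound by NF-Y) or a sterol regulatory element (bound by SREBP), searched on both strands. A CCAAT box on the opposite strand reads ATTGG. Srebf1 has 3 such starts, and which of them the measured transcripts used cannot be told from the probes.
Mlxipl, chr5:135089640-135089889, plus strand: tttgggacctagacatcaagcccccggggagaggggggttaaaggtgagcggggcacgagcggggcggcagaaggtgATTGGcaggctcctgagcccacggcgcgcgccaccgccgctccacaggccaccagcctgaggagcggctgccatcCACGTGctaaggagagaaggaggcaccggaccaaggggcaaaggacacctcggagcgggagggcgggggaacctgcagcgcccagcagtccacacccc
Srebf1, chr11:60210472-60210721, minus strand: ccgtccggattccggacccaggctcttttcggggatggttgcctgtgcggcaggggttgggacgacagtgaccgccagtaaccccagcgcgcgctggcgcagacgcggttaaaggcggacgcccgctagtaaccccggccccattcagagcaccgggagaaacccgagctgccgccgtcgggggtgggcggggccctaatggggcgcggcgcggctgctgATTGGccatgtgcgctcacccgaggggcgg
Thrsp, chr7:97417551-97417800, minus strand: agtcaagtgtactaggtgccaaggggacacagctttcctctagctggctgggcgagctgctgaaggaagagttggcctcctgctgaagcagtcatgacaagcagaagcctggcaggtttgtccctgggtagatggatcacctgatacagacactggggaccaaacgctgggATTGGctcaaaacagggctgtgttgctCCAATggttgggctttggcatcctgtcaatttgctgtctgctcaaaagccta

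The Mlxipl window held an E-box beginning 98 bases before the start, the one E-box in the 10 windows of the members, against 6.02% of 32851 windows of this length for all genes. A CCAAT box was found in 6 of the 10 windows and in 33.8% of all. The Thrsp window held 2, at 79 and 52 bases before the start, the Srebf1 window shown held 1 at 30 bases, and the Mlxipl window held 1 at 173 bases. The full sterol regulatory element was in none of the 10 windows and in 0.0731% of all, and the looser TCACNCCAC was in the window of the other Mlxipl start, at 136 bases, and in 1.05% of all. GGGCGG, the GC box bound by Sp1, was in 5 of the 10 and in 32.7% of all. Neither the perfect carbohydrate response element, a pair of E-boxes, nor the perfect direct repeat bound by the receptor LXR was in any of the 10 windows (0% and 0.0152% of all). Perfect copies are so rare that their absence from 10 windows tells nothing of the members. Imperfect forms of these 2 elements were not searched. The search describes letters in these windows and says nothing of binding.

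Mlxipl and Srebf1 rose in leptin livers, and the targets that could be measured did not pass the test. Of the 7 genes, 5 were tested, of which 2 rose, none fell and 3 did not pass, where 8.31% of all 8819 genes tested rose, 8.4% fell and 16.7% were called in either direction. The groups overlapped for all 5, where 7.28% of all genes had groups that did not overlap, 3.15% with leptin higher. Of the members' 6 kept probes 3 were called, where 18.1% of all kept probes were. The test was limma across all genes, with a Benjamini-Hochberg adjusted p under 0.05. All 5 log2 differences were above 0, as were those of 4450 of the 8819 genes, whose median difference was 0.0039. The study measured bulk liver, so fewer cells of a type and less RNA per cell cannot be told apart.

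**Figure D1:**
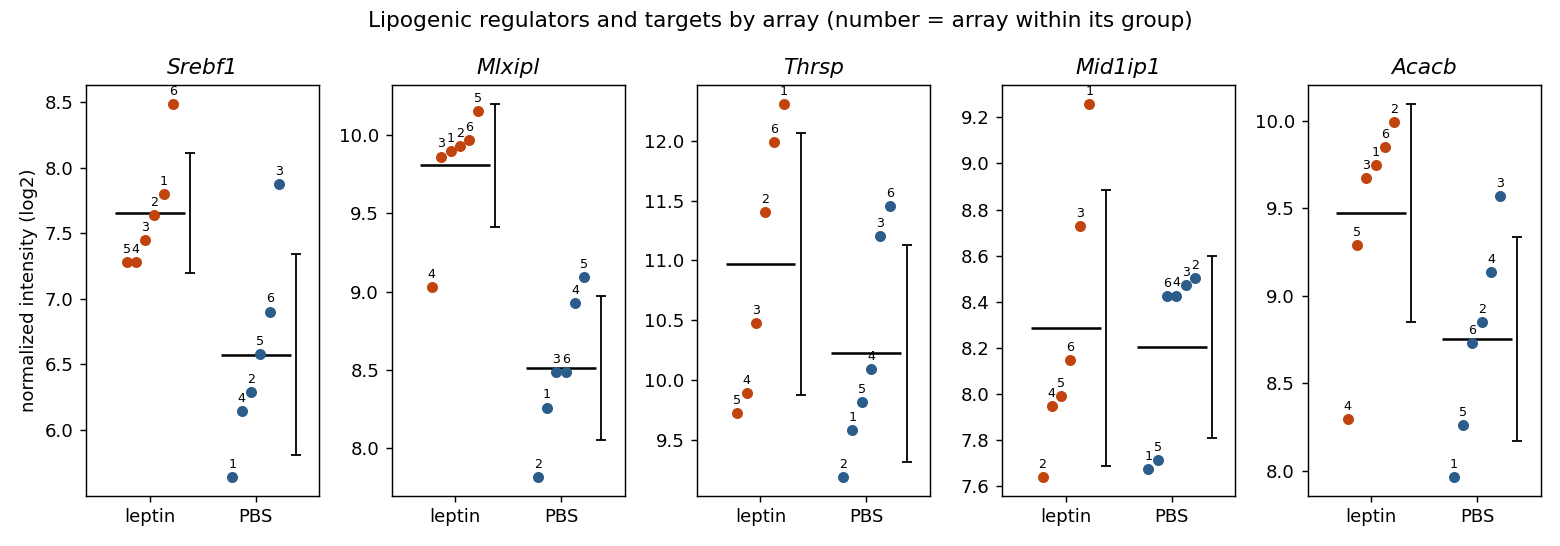
Normalized intensity (log2, vertical axis, a separate scale per gene) of the 5 tested genes on each array, with leptin left of PBS; points are arrays sorted by value and numbered within their group, lines are means and bars are SD (n = 6 each). For Mlxipl 5 of 6 leptin arrays sit above all PBS arrays and leptin 4 lies at 9.03, whereas the Mid1ip1 groups cover each other, with means of 8.29 with leptin and 8.20 with PBS.

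Mlxipl encodes ChREBP, the factor that ties carbohydrate supply to the lipogenic and glycolytic genes. Its deposited signal ranged from 620.8 over a median of 1062 to 1236 with leptin, against 324 over 457.1 to 644.5 with PBS. Of the 6 leptin arrays, 5 lay above every PBS array, and leptin 4 alone lay below PBS 5. Normalized intensity averaged 9.81 ± 0.39 with leptin and 8.51 ± 0.46 with PBS (log2, SD, n = 6 each), a log2 difference of 1.29 ± 0.22 (SE, 95% interval 0.81 to 1.78), or 2.45-fold (limma adjusted p = 0.0026). This placed it at rank 178 of 8819 genes by p. The call held without each array in turn (log2 differences 1.16 to 1.45), and it was lost when a score of clock genes entered the model (0.87, limma adjusted p = 0.0865). The authors' deposited table gave this probe a log2 difference of 1.09 with an unadjusted p of 8.77e-06.

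A second Mlxipl probe, annotated to the same transcript, was also called, at lower signal. It ranged from 266.3 over a median of 430.6 to 470.4 with leptin and from 181.5 over 253.9 to 277.8 with PBS. Its log2 difference was 1.11 ± 0.22 (limma adjusted p = 0.00465 among 15062 kept probes, of which 8.31% rose). With the clock score in the model it was 0.50 and not called (limma adjusted p = 0.237). Leptin 4 was again the lowest leptin array, and it lay below PBS 5 on this probe too.

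Srebf1 encodes SREBP-1a and SREBP-1c, of which SREBP-1c is the main form in liver and the one raised by insulin. Its detected probe had a signal from 253.6 over a median of 285.5 to 457.6 with leptin, and from 148.4 over 185.4 to 333.3 with PBS. Of the PBS arrays, 5 lay below every leptin array, while PBS 3 lay above all leptin arrays but leptin 6. Normalized intensity averaged 7.65 ± 0.46 with leptin and 6.57 ± 0.77 with PBS (log2, SD), a log2 difference of 1.08 ± 0.32 (SE, 95% interval 0.40 to 1.77, 2.12-fold, limma adjusted p = 0.0341). The authors' deposited table gave 0.60 with an unadjusted p of 0.00365. The limma call sat close to the threshold. It was lost without any 1 of leptin 1, 2, 3 or 6 or PBS 1, 2, 4 or 5 (limma adjusted p up to 0.0726), at log2 differences that stayed between 0.90 and 1.12. Without PBS 3 the difference was 1.34 (limma adjusted p = 0.00474), and without both PBS 3 and leptin 4 it was 1.42 (0.00424). PBS 3 was the highest PBS array and leptin 4 lay below the leptin mean, so leaving them out had to widen the difference.

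The other Srebf1 probe, annotated to the same transcript, was detected on none of the 12 arrays. Its signal lay between 104.4 and 115.1 with leptin and between 101.2 and 113.5 with PBS, close to the 118.9 at which the median probe of the array stood. The rise therefore rests on 1 probe, and the array does not separate the 1a and 1c transcripts here.

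Acacb, acetyl-CoA carboxylase 2, makes malonyl-CoA at the mitochondrion, where malonyl-CoA holds back fatty acid entry. Its signal ranged from 412.4 over a median of 935.7 to 1119 with leptin, against 348.2 over 541.3 to 859.3 with PBS. Of the leptin arrays, 4 lay above every PBS array and leptin 4 lay near the bottom of the PBS range. Normalized intensity averaged 9.47 ± 0.62 with leptin and 8.75 ± 0.58 with PBS, a log2 difference of 0.72 ± 0.31 (95% interval 0.06 to 1.38, 1.65-fold), which did not pass (limma adjusted p = 0.121).

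The Acacb result turned on leptin 4. Without that array the log2 difference was 0.96 (limma adjusted p = 0.0218), and without PBS 3 as well it was 1.12 (limma adjusted p = 0.00563). For Acacb leptin 4 was the lowest leptin array and PBS 3 the highest PBS array. Leaving them out therefore had to widen the difference, and these p-values cannot be read as a call of Acacb. Leaving out any other single array gave no call. A second Acacb probe was detected on no array, at signals of 113.4 to 126.1 with leptin and 111 to 122 with PBS.

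Acaca, acetyl-CoA carboxylase 1, is the cytosolic enzyme that feeds fatty acid synthase. Its only probe was detected on none of the 12 arrays, with signals of 103.4 to 116 in leptin livers and 103.3 to 110.1 in PBS livers. These array data therefore hold no level of Acaca in either group, and no comparison was made of the 2 carboxylases.

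Thrsp, known as Spot 14, is raised by thyroid hormone, insulin and carbohydrate in liver and tracks lipogenesis. It had the widest spread of the 5 tested genes within the leptin group. Its signal ranged from 943.5 over a median of 2172 to 5176 with leptin, a 5.49-fold span, and from 683.3 over 1095 to 2908 with PBS, a 4.26-fold span. Leptin 1 and 6 lay above all other arrays, and the other 4 leptin arrays lay within the PBS range. Normalized intensity averaged 10.97 ± 1.09 with leptin and 10.22 ± 0.91 with PBS, a log2 difference of 0.74 ± 0.50 (95% interval -0.33 to 1.82) that did not pass (limma adjusted p = 0.327). That interval includes the fitted difference of Mlxipl. A second Thrsp probe, annotated to a cDNA clone, was detected on leptin 1 alone, at a signal of 148.1, and leptin 1 was also the highest array for the main probe.

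Mid1ip1, also called MIG12 or Spot 14-related, binds acetyl-CoA carboxylase and promotes its assembly into active filaments. Its signal ranged from 298 over a median of 367.5 to 711.2 with leptin and from 303 over 442.6 to 461.5 with PBS. Only 2 leptin arrays, 1 and 3, lay above the PBS range, and 4 lay below the PBS median. The log2 difference was 0.08 ± 0.26 (95% interval -0.48 to 0.64, limma adjusted p = 0.860), an interval that ends below the fitted differences of both Mlxipl and Srebf1. A test of the difference between genes was not made. The sign of this small value turned without leptin 1 (-0.11), without leptin 3 (-0.0057), without PBS 1 (-0.022) and without PBS 5 (-0.015).

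Pnpla3 encodes a lipase-family protein of lipid droplets whose gene is known as a target of SREBP-1c. Its only probe was detected on none of the 12 arrays. Signals were 112.2 to 124.5 with leptin and 106.4 to 115.3 with PBS, so all lay near or below the array median. In the authors' deposited table the log2 difference was 0.073 with an unadjusted p of 0.0231. With no filter on dim probes its limma adjusted p was 0.201 at a log2 difference of 0.16. 

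**Figure D2:**
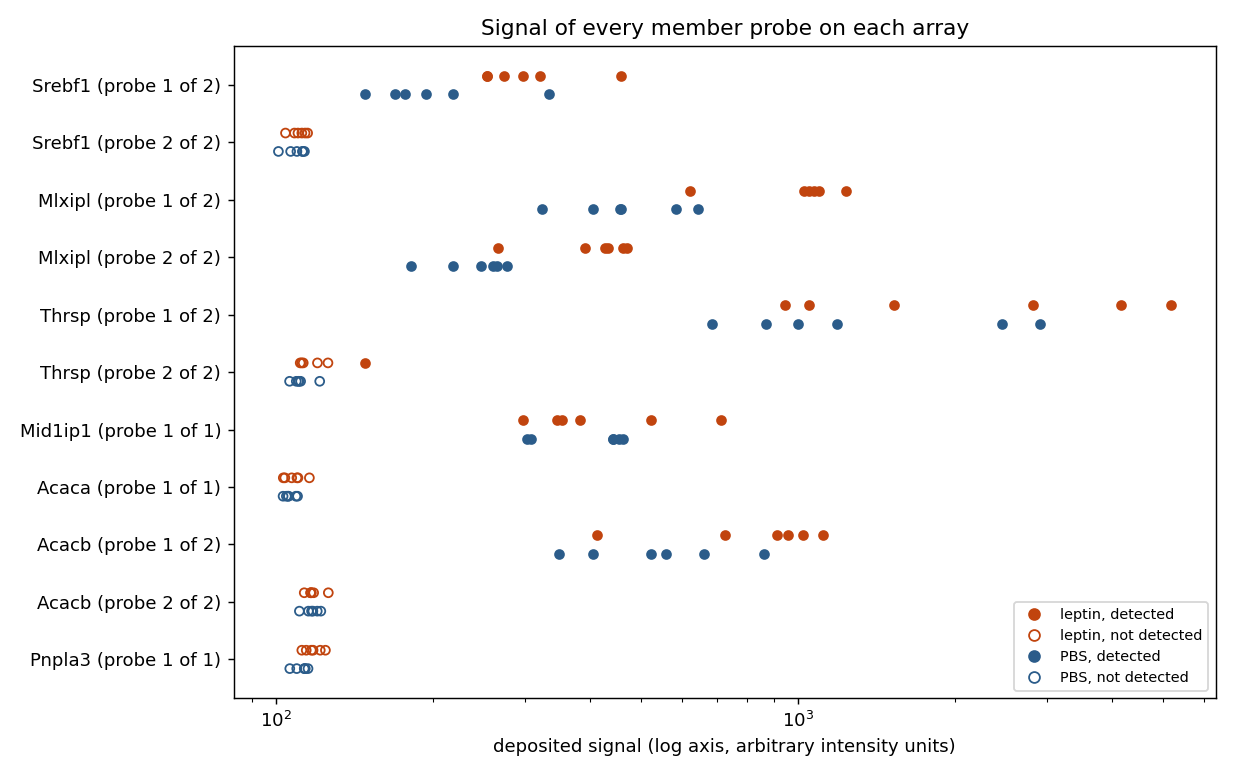
Deposited signal (horizontal log axis, intensity units) of all 11 probes on each of the 12 arrays, leptin in the upper row of each pair and PBS in the lower; filled points are detected (detection p under 0.01) and open points are not. The 6 kept probes lie between 148.4 and 5176, and the 5 others lie between 101.2 and 148.1, with leptin 1 the single detection among them.

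The relation of the regulators to their targets within a group was examined over arrays. Between Srebf1 and Thrsp, Pearson's r was 0.80 over the 6 leptin arrays (exact permutation p = 0.0319) and 0.75 over the 6 PBS arrays (exact permutation p = 0.0778). Spearman's rho was 0.94 with leptin (exact permutation p = 0.0167) and 0.66 with PBS (exact permutation p = 0.175). Without the 2 arrays farthest from the Srebf1 median the r was 0.99 with leptin (without leptin 5 and 6) and 0.75 with PBS (without PBS 1 and 3). Over the 14 relations computed, 7 pairs in 2 groups, none passed after Benjamini-Hochberg adjustment (exact permutation adjusted p for this pair 0.447 with leptin and 0.486 with PBS for r, and 0.233 with leptin and 0.773 with PBS for rho), and 1 had an unadjusted p below 0.05 by either coefficient. Tests were two-sided, and the smallest p that 6 arrays allow is 0.00139 for r. For rho it is larger, because a fully reversed order counts as equally extreme.

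Srebf1 against Acacb gave an r of 0.57 with leptin (exact permutation p = 0.203, adjusted 0.568) and 0.72 with PBS (0.108, adjusted 0.486). Its rho was 0.77 with leptin and 0.49 with PBS (exact permutation p = 0.103 and 0.356, adjusted 0.719 and 0.773). The PBS value rested on PBS 1 and 3, without which r was -0.56. Without leptin 5 and 6, the leptin r was 0.79. The regulators themselves had an r of 0.33 with leptin and 0.12 with PBS (exact permutation p = 0.418 and 0.835, adjusted 0.836 and 0.899) and a rho of 0.086 with leptin and 0.20 with PBS (exact permutation p = 0.919 and 0.714, adjusted 1 and 0.999). Without the 2 farthest arrays these r were 0.80 with leptin and 0.072 with PBS. Mlxipl against Acacb had an r of 0.82 with leptin (exact permutation p = 0.139, adjusted 0.486) but a rho of 0.37 (0.497, adjusted 0.773), and with PBS an r of -0.013 and a rho of -0.029 (exact permutation p = 0.971 and 1, adjusted 0.971 and 1). Without leptin 4 and 5 its r was 0.71, and without PBS 2 and 5 it was 0.57. The other 6 relations, with Mid1ip1 or between Mlxipl and Thrsp, had r from -0.31 to 0.48, none with an unadjusted exact permutation p below 0.05.

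**Figure D3:**
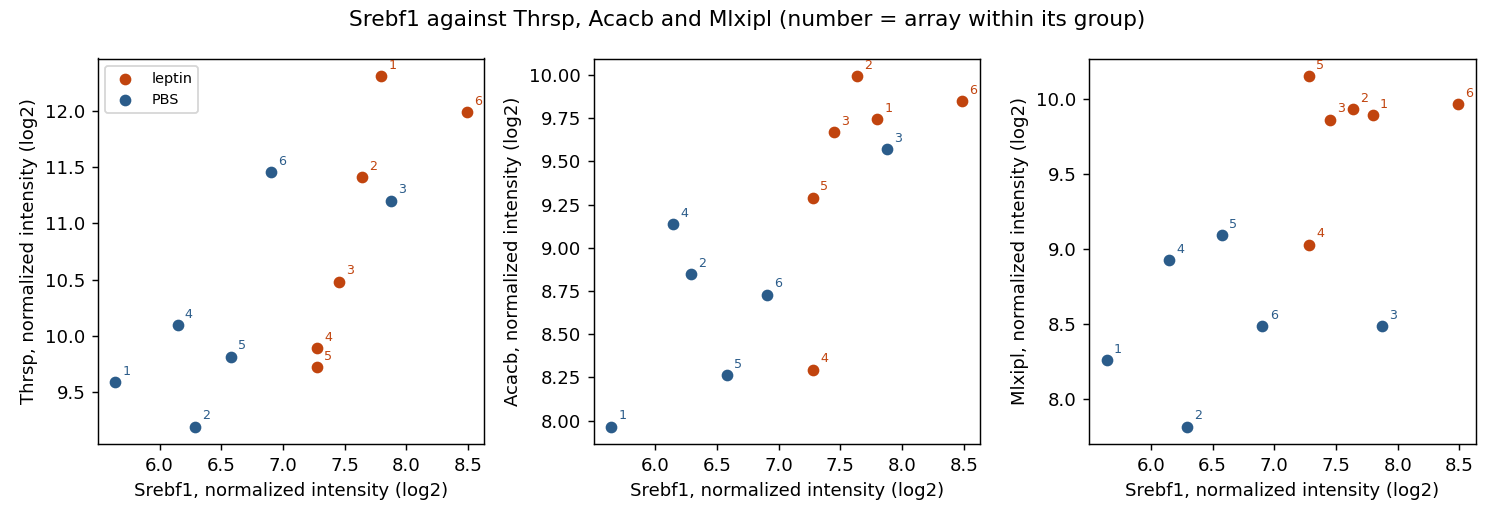
Normalized intensity (log2) of Thrsp, Acacb and Mlxipl against that of Srebf1, a point per array, numbered within its group. PBS 3 lies at 7.88 on the Srebf1 axis, inside the leptin range of 7.28 to 8.49, and leptin 4 lies at 8.29 for Acacb, inside the PBS range of 7.96 to 9.57.

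The genes most like each regulator, by Pearson's r of the deviations from the group means over 12 arrays, were not other members. For Srebf1 they were Slc26a1 (r = 0.94), Ptms (0.93) and Serinc2 (0.92), the best of 8818 genes, and for Mlxipl they were Prpf40b (0.91), Gabarapl1 (0.88) and Hyal1 (0.87). Among members, Thrsp came nearest to Srebf1 (r = 0.73, rank 222), then Acacb (0.63, rank 608), and the member nearest to Mlxipl was Acacb (0.39, rank 1453). These r describe a choice of the highest among many and carry no test. None of the 6 chosen genes passed between the groups (log2 differences -0.22 to 0.22), and the arrays share their normalization.

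Among other enzymes of lipogenesis, Scd1 and Elovl6 rose. Of 16 such enzymes 12 were tested, of which 2 rose and none fell, where 8.31% of all genes rose and 16.7% were called either way. The count was not tested against these shares and is too small to be read as a result about the list. The median log2 difference of the 12 was 0.40 against 0.0039 for all genes. Differences above 0 were found for 10 of the 12 and for 4450 of all 8819 genes. The 2 that rose were the desaturase Scd1 (3.51 ± 0.69 SE) and the elongase Elovl6 (1.12 ± 0.25). Scd1 spread widely with PBS, averaging 10.02 ± 1.93 there and 13.53 ± 0.40 with leptin (log2, SD). Its signals ran from 255.1 to 16584.5 over all arrays. Fasn, the fatty acid synthase, was detected on 2 leptin arrays and no PBS array at signals up to 154.4, and was not tested. Of 11 tested sugar-handling genes known to follow ChREBP or insulin, Tkt, a transketolase, rose (0.54 ± 0.16) and none fell, where 8.31% of all genes rose, and the median was -0.045. Arrdc4, an arrestin-domain protein, stood at -0.54 ± 0.18 (limma adjusted p = 0.0503, its probe being called among all kept probes) and the hormone Fgf21 at -0.54 ± 0.19 (0.0644), neither of which passed. The Fgf21 probe was detected on no leptin array and on 3 PBS arrays, at signals of 114.4 to 151.6, so no leptin level was measured. Of 9 tested genes listed around ChREBP, 1 rose and none fell, where 8.31% of all genes rose. It was the E-box-binding repressor Bhlhe40 (1.19 ± 0.31), which is not itself a partner of ChREBP. The partner Mlx had a difference of 0.060.

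Insig2 and Srebf2 fell among the genes that act on SREBP. Of 13 tested genes of SREBP processing and upstream control 2 were called lower and none higher (median log2 difference 0.046). Of all genes 8.4% were called lower and 16.7% either way. The count was not tested against these shares and is too small to be read as a result about the list. Insig2, which holds the SCAP-SREBP complex in the endoplasmic reticulum, averaged 10.26 ± 0.31 with leptin and 12.20 ± 0.54 with PBS (SD), a log2 difference of -1.94 ± 0.23 (SE, limma adjusted p = 0.000334), and all 3 of its probes were called. Its relative Insig1 had a log2 difference of -0.13 ± 0.13 and did not pass. Srebf2, the sterol-side paralog of Srebf1, fell (-0.48 ± 0.12). Scap, the escort protein, stood at 0.61 ± 0.20 (limma adjusted p = 0.0567) and Ppargc1b, a co-activator of SREBP-1, at 1.09 ± 0.38 (0.0627), neither of which passed.

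Of 9 tested genes listed around acetyl-CoA carboxylase, malonyl-CoA and the carnitine palmitoyltransferases, 1 fell and none rose (median -0.027), where 8.4% of all genes fell. It was Cpt2 (-0.80 ± 0.12), the inner mitochondrial palmitoyltransferase, which malonyl-CoA is not known to control, and the malonyl-CoA-sensitive Cpt1a and Cpt1b were not tested because no probe of theirs was kept. The AMPK subunits tested, which belong to the kinase that switches the carboxylases off, had differences from -0.34 to 0.34, and none passed. Of 6 tested relatives and co-factors of Pnpla3 none passed by limma, and 1 of the 6 log2 differences was above 0 (median -0.26). An unadjusted limma p below 0.05 was found for 3 of them, and for 2836 of all 8819 genes. Of the 2 kept probes of Pnpla8, 1 was called among all kept probes. The differences farthest from 0 were those of Pnpla7 (0.50 ± 0.17, limma adjusted p = 0.0563) and G0s2 (-0.38 ± 0.33).

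**Figure D4:**
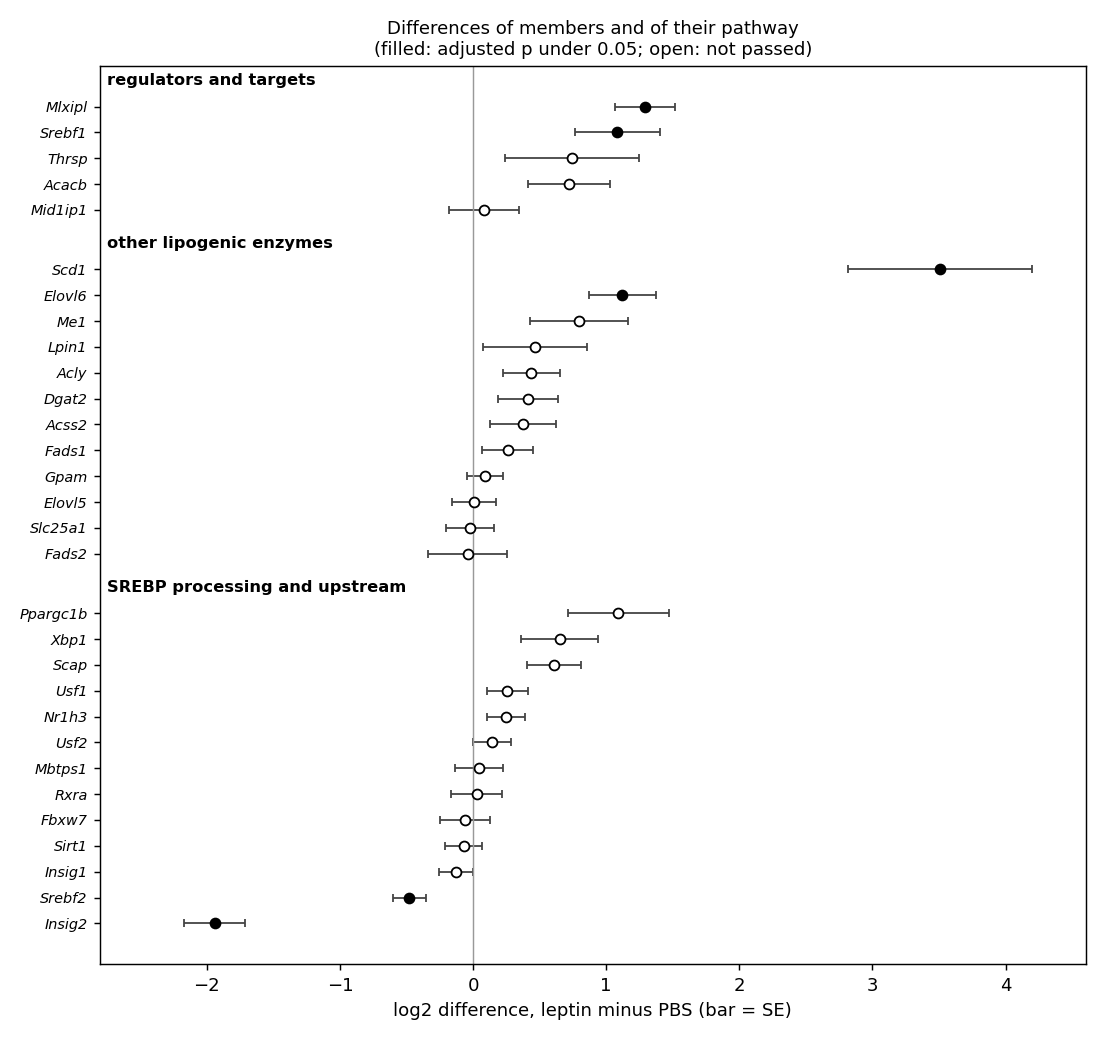
Log2 difference (leptin minus PBS, horizontal axis, bars are SE) of the tested members, of 12 other lipogenic enzymes and of 13 genes of SREBP processing and upstream control; filled points passed an adjusted p of 0.05. Mlxipl and Srebf1 lie at 1.29 and 1.08, Scd1 at 3.51, and Insig2 at -1.94.

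Other groups of genes moved with the same contrast. Of 11 tested clock genes 3 rose and 2 fell, where 8.31% of all genes rose and 8.4% fell. Outputs of several clock genes act on lipogenic genes in liver. Among those called were Dbp (log2 difference 2.65 ± 0.53), Per1 (0.79 ± 0.15) and Clock (-1.03 ± 0.14). Arntl was also called, at least 1.95-fold lower with leptin and detected on none of the leptin arrays (limma adjusted p = 0.00159). When the clock score entered the limma model, 0 of the 5 members were called, 1 with an unadjusted p below 0.05. Of all 8819 genes, 1096 were called in that setting, so a count of 0 among 5 is no result about the members. The differences were then, besides those of Mlxipl given above, 0.21 for Srebf1 (limma adjusted p = 0.774), -0.24 for Acacb, -0.52 for Thrsp and -0.16 for Mid1ip1. The score nearly followed the groups, apart from leptin 4 and PBS 3. The part of the clock genes in these results was not tested.

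Some markers of other cell types also rose with leptin. Over all 8819 genes tested, 8.31% rose and 16.7% were called in either direction. The small marker counts below were not tested against these shares. Of 5 tested macrophage markers, Clec4f and Timd4 rose and none fell, with a summed level of 2388 to 5882 with leptin and 1402 to 3178 with PBS. Of 6 endothelial markers 2 rose (6285 to 9283 with leptin and 4129 to 9017 with PBS), and of 5 stellate markers 1 rose (1284 to 2233 with leptin and 653.7 to 1757 with PBS). Of 5 lymphocyte markers on the array, 2 were detected on no array and 2 were tested. The tested ones, Cd3e and Cd3d, both rose, with a summed level of 52.7 to 206 with leptin and 15.4 to 38.3 with PBS. The Cd3e probe was detected on no PBS array. Of 4 acinar markers on the array, 2 were detected on no array and 2 were tested. Cela2a rose and Cela1 did not pass (0.28 ± 0.26, limma adjusted p = 0.493), with a summed level of 1491 to 6349 with leptin and 474.4 to 1304 with PBS. The 2 blood markers did not pass (9611 to 34573 with leptin and 5138 to 35945 with PBS). Of the 7 hepatocyte markers 1 rose and 1, Alb, fell. The part of these cells in the members' results was not tested.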

How the data were processed

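The series' design text names Illumina's Mouse-6 V2 bead array as the platform for liver RNA. The deposited intensity values (AVG_Signal, per the file headers) come with a detection p-value per probe and array; their sorted signals differed between arrays by a median of 0 percent, so they had been equalized before deposit, with no background subtracted (lowest 95.9). The authors' log2 values equal log2 of these signals. The authors' Cyber-T p-values, named so per the file headers, are unadjusted. No sources used here name the scanner software.

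Of 45281 probes, 34885 had 1 symbol in GEO's platform annotation, 18 several and 10378 none. Signals were normalized with neqc of limma 3.58.1 (R 4.3.3), which estimates background from the detection p-values, then applies quantile normalization and log2 after an offset of 16. The offset understates changes of dim genes. Probes detected (p under 0.01) on at least 3 of 12 arrays were kept, 15062 in all, and each of 8819 genes was read by its kept probe of highest mean. The tests were limma's, two-sided. They were run once on simulated data in which 200 of 8819 genes were changed. Log2 changes of 0.5, 1 and 2 were called for 35.8%, 83.6% and 100% of the genes so changed, and 5.19% of calls were false. Here 1474 genes were called, so these shares need not hold for the data.

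Members and lists were chosen with earlier results of these data known. Named genes were the 7 members with every probe, up to 4 called genes of each list (up to 2 where none passed), Fasn, and the 3 genes most like Srebf1 and Mlxipl. Clec4f, Timd4, Cd3e, Cd3d, Cela2a, Cela1, Alb, Mlx, Insig1, Scap, Ppargc1b, Arrdc4, Fgf21, Pnpla8, Cpt1a and Cpt1b were named after their values were seen. Motifs and their windows were chosen after the values were seen.  Slides are not given, so batches could not be tested. The number of arrays limits the precision. Python 3.11.15 with pandas, numpy and matplotlib drew the figures.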

Additional observations from a re-analysis of the deposited data

Results flagged for a closer look

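Leptin 4 stood far below the other leptin arrays for Mlxipl, at 9.03 against 9.86 to 10.15 (log2 normalized intensity), and likewise on the second Mlxipl probe, at 7.39 against 8.19 to 8.54. In 12 groups of 6 arrays examined, Dixon's gap test at its 95% critical value picked out these 2 values, and chance picks out about 1 in 20 groups. Both probes read the same gene on the same array, so the values are not independent.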

How the results depend on the processing

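Mlxipl kept its direction under all 23 alternatives and its call under 22. Srebf1 kept its direction under all 23 and its call under 12; besides the arrays named above, it was lost with the deposited log2 signals without background correction (0.60, limma adjusted p = 0.0518), with no filter on dim probes (1.08, 0.0840) and with the clock score. Of the 5 members tested, 2 were called in the main setting, where 1474 of 8819 genes were. With the deposited signals 1 of the 5 was called (1414 of 8819 genes), and with the clock score 0 (1096 of 8819). With no filter 7 members were tested and 1 was called (1218 of 19057 genes). Leaving out 1 array gave 1 to 3 of the 5 members (1053 to 1546 genes). Of the kept probes of the members 3 were called, and 0 with the clock score. That setting also turned Acacb (-0.24), Thrsp (-0.52) and Mid1ip1 (-0.16), and leaving out 1 array turned Mid1ip1 (range -0.11 to 0.21). Acacb was called with array weights (0.83, limma adjusted p = 0.0325). The cause of these shifts was not tested. Of all genes 1474 were called, and 994 with the authors' deposited p-values. With the replicate block 1384 genes and 2 members were called; no member's call changed, and the numbers did not pair the arrays (deviations of same-numbered arrays correlated at -0.32 to 0.46, and 2 of 6 leptin arrays correlated best with their own number). The 14 within-group relations gave 0 calls also with the deposited log2 values, an alternative chosen after seeing the data. Members with undetected probes have no level here.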
